A study of Mus musculus with 15 samples.

Results

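A set of 10 genes of migrating neuroblasts and newborn olfactory bulb interneurons (Dcx, Sox11, Cd24a, Igfbpl1, Dlx1, Dlx2, Dlx5, Dlx6, Sp8 and Sp9) was followed through a mouse brain RNA-seq series. The 10 genes were chosen by name as known genes of these cells, out of 27179 gene IDs in the count table, and all 10 were present and deep enough to be tested in every comparison. The series holds 15 libraries from mice aged 12 months, each labelled as brain hemisphere. Of these, 7 came from mice homozygous for a transgene that expresses human α-synuclein under the PLP promoter, which is active in oligodendrocytes (TG, 4 females and 3 males). The other 8 came from non-transgenic mice on a C57Bl/6 background (WT, 4 females and 4 males). The labels do not say whether each library is a separate animal, and any p-value then reflects only how these samples vary, which may be technical. The sample titles also carry a number that all libraries of a genotype-by-sex group share and that differs between the groups. What this number stands for is not stated, and its effect cannot be told apart from those of genotype and sex.

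In the adult rodent brain, neural stem cells of the subventricular zone give rise to neuroblasts that migrate along the rostral migratory stream to the olfactory bulb. There they mature into GABAergic granule and periglomerular interneurons. Dcx binds microtubules in migrating neurons, Sox11 is a SoxC transcription factor of newborn neurons, and Cd24a is a surface glycoprotein found on neuroblasts and also on ependymal cells. Igfbpl1 encodes a secreted protein related to the insulin-like growth factor binding proteins. Dlx1, Dlx2, Dlx5 and Dlx6 are homeodomain transcription factors of forebrain GABAergic neurons, and Sp8 and Sp9 are zinc finger transcription factors required to make bulb interneurons.

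On GRCm38, Dlx1 lies at chr2:71528113-71533981 on the plus strand and Dlx2 at chr2:71543408-71546754 on the minus strand. Sp9 is on the same chromosome at chr2:73271926-73275771. Dlx6 (chr6:6863334-6867970) and Dlx5 (chr6:6877801-6882068) form a second pair of neighbours on opposite strands. Sox11 (chr12:27334268-27342718) and Sp8 (chr12:118846288-118852578) share a chromosome, while Cd24a (chr10:43579169-43584265), Igfbpl1 (chr4:45809507-45826827) and Dcx (chrX:143855842-143933396) stand alone. A pair of noncoding RNAs runs opposite to Dlx6 and Dlx1, on the strand of Dlx5 and Dlx2. Dlx6os1 spans all 4637 bp of Dlx6 with 0 bp of shared exon, and Dlx1as shares 335 bp of exon with Dlx1, or 6.2% of the exonic length of Dlx1. The sources used here do not say whether counting used strand, so reads of these partners cannot be told apart where they overlap.

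Promoter sequences were available from RefSeq (GRCm38.p6) for 6 of the 10 genes, in 9 entries that run from 250 bases before to 50 bases after the start. The promoters of both neighbours Dlx1 and Dlx2, of Sp9, of Sox11 and of Dcx are printed because Dlx1, Dlx2 and Sp9 are transcription factor genes that separated the brain regions sharply, while Sox11 and Dcx are neuroblast genes that behaved unlike each other in the library that stood apart. Capitals mark the GC box GGGCGG and the homeodomain core TAATTA on either strand.
Dlx1: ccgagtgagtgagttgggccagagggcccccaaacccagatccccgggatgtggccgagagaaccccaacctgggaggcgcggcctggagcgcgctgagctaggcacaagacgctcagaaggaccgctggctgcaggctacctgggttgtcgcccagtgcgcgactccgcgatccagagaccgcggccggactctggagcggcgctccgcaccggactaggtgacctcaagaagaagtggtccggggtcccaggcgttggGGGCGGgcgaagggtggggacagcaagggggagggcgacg
Dlx2: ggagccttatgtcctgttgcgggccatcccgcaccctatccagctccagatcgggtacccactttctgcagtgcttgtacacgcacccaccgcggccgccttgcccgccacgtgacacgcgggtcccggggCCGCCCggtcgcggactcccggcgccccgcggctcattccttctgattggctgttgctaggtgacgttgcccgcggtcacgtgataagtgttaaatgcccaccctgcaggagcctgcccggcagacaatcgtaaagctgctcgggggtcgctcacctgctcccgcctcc
Sp9: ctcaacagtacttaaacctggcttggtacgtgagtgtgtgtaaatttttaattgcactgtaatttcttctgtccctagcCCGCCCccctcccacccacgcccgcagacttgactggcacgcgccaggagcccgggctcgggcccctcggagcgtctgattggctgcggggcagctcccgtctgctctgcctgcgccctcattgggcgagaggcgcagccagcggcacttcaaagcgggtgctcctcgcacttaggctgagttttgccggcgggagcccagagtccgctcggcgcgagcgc
Sox11: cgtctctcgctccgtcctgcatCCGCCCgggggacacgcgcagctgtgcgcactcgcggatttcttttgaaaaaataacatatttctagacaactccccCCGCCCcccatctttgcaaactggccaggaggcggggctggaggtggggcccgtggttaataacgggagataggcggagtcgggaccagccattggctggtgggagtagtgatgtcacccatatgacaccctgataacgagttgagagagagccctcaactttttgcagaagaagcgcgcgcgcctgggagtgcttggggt
Dcx: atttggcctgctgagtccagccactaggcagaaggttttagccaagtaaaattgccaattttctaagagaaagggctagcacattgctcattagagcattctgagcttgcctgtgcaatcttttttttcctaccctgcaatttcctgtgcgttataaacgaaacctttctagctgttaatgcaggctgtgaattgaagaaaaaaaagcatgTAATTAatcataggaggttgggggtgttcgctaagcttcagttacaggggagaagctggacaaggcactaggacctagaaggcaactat
The GC box was present once in the promoters of Dlx1, Dlx2 and Sp9, and at 2 places in that of Sox11, against 35.7% of 32851 mouse promoters of this length. TAATTA was present in the Dcx promoter, 39 bases before the start, against 5.29% of all promoters. The Dcx promoter was also the poorest in G and C of the printed promoters, at 43.0%, while Dlx1 was at 69.3% and the median of all promoters at 52.7%. Sp8 also separated the regions sharply, and its entries, which are not printed, were mixed. Entry 1 had neither motif, at 43.0% G and C. Entry 2 had 1 GC box, at 61.0%, and entry 3 had TAATTA but no GC box, at 53.0%. These are matches of letters on both strands and are descriptions only.

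The libraries did not share 1 brain region. They were put into 4 classes in a fixed order, using neither the 10 genes nor genotype. A library with at least 10 CPM of Hoxa5 was hindbrain, of the rest one with 10 CPM of Gabra6 was cerebellum, then one with 10 CPM of Omp was Omp-high, and the remainder was cortex. CPM are counts scaled to library size, with the sizes normalised over all 15 libraries. In 7 libraries Omp, a gene of olfactory sensory neurons, was at 42.2 to 159 CPM, against at most 2.71 CPM elsewhere, and these are called Omp-high. They were TG female 2, TG males 1 and 3, WT females 1 and 4, and WT males 1 and 2. The remainder was 3 libraries, TG male 4, WT female 2 and WT male 4, where the cortical marker Neurod6, which set no class, was at 131 to 171 CPM. The Omp-high libraries held Neurod6 too, unevenly, at 11.9 to 14.9 CPM in TG and 4.35, 15.5, 20.3 and 55.8 CPM in WT female 1, WT female 4, WT male 1 and WT male 2. Its part in the results below was not tested. The hindbrain marker Hoxa5 was at 69.3 to 121 CPM in 4, TG females 1 and 4, WT female 3 and WT male 3. The cerebellar marker Gabra6 was at 701 CPM in TG female 3. Library totals ran from 15170772 to 35850998 counts, so that 3 counts in a library were worth 0.0834 to 0.194 CPM. The labels name a hemisphere for all 15, and the classes are called by these markers. Mature bulb interneuron genes summed to 3100 to 4610 CPM in Omp-high libraries, against 947 to 2130 CPM in the others. The sum of 15 other neuroblast genes did not follow this order, at 2040 to 2440 CPM in Omp-high libraries and 2200 to 2480 CPM in cortex libraries. Such a sum is weighted to the most abundant genes. Sox4, which is on this list, had medians of 113 CPM in Omp-high, 23.5 CPM in cortex and 13.7 CPM in hindbrain libraries. It was the gene whose level lay nearest to the 10 over all 15 libraries (r = 0.991), so it does not stand for the list. The rest of the list is not given gene by gene here. Mitral and tufted cell markers, some of which cortical neurons also express, were at 1040 to 1680 CPM in Omp-high libraries and 2060 to 2320 CPM in cortex libraries. Levels by class are a description, with no test.

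Of the 10 genes, 9, all but Cd24a, were higher in each of the 7 Omp-high libraries than in all 8 others. The same held for 4.81% of 17151 genes. A further comparison had 8 of the 10, all but Cd24a and Igfbpl1, higher in all 3 cortex libraries than in all 5 hindbrain and cerebellum libraries, against 18.9% of genes. In bulk tissue, fewer cells of a type and less RNA per cell cannot be told apart.

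**Figure D1:**
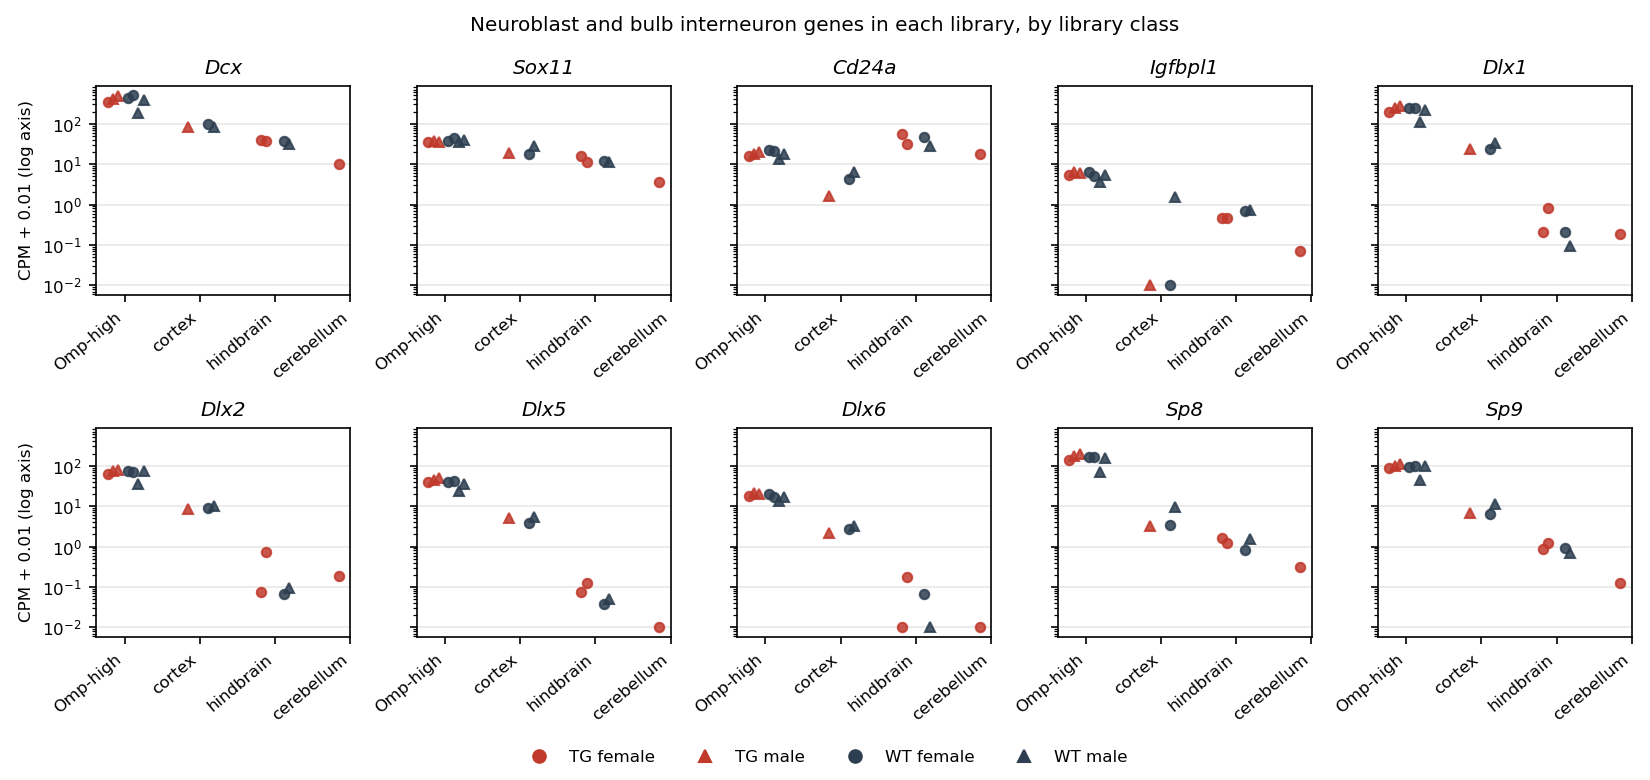
Level of each of the 10 genes in every library (CPM + 0.01, log axis), by library class; red points are TG, dark points WT, circles females and triangles males. The Omp-high libraries are the highest for every gene but Cd24a, whose highest levels, 28.2 to 54.1 CPM, are in the hindbrain libraries.

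Dcx, the microtubule-binding protein of migrating neurons, separated all 4 classes. Its level in Omp-high libraries was 354, 405 and 487 CPM in TG female 2 and TG males 1 and 3, against 443, 499, 187 and 395 CPM in WT females 1 and 4 and WT males 1 and 2. It was 80.6 CPM in the TG cortex library and 97.1 and 84.6 CPM in the WT ones, and 39.4 and 37.2 CPM in TG hindbrain libraries against 37.4 and 31.3 CPM in WT ones. The cerebellum library had 9.97 CPM. The 4 ranges did not overlap, and the cortex median was 20.9% of the Omp-high median.

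Sox11, the SoxC factor, showed the smallest difference between Omp-high and cortex libraries. It stood at 36.3, 38.1 and 35.6 CPM in TG Omp-high libraries, against 36.4, 45, 35.8 and 38.7 CPM in WT ones, in the order given for Dcx. The cortex library of TG male 4 had 18.4 CPM, against 17.7 and 27.4 CPM in WT female 2 and WT male 4. The cortex median was 50.5% and the hindbrain median 32.2% of the Omp-high median, and TG female 3 had 3.58 CPM. The 7 Omp-high libraries thus lay close together for this gene, and WT male 1, the lowest for Dcx, was within the spread of the others.

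Cd24a was the exception to the class order. The hindbrain libraries had 54.1 and 30.7 CPM in TG females 1 and 4, against 47.6 and 28.2 CPM in WT female 3 and WT male 3. In the Omp-high libraries it was at 16.3, 18 and 20.5 CPM in TG and at 22.8, 20.7, 13.7 and 17.6 CPM in WT. The cerebellum library, at 17.7 CPM, fell within the Omp-high range, and the 3 cortex libraries, at 1.66 to 6.48 CPM, were the lowest. Summed ependymal markers were at 28.8 to 38.0 CPM in hindbrain libraries and 34.0 CPM in the cerebellum library, against 8.11 to 14.4 CPM in Omp-high and 7.40 to 12.2 CPM in cortex libraries; their part in the level of Cd24a was not tested.

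Igfbpl1, the secreted protein, held at most 25 counts per library outside the Omp-high class. Omp-high TG libraries had 5.43, 6.42 and 5.93 CPM, against 6.34, 5.21, 3.70 and 5.34 CPM in WT ones. Its count was 0 in the TG cortex library and in WT female 2, and 25 (1.54 CPM) in WT male 4; a count of 0 allows up to 0.172 CPM in TG male 4 and 0.164 CPM in WT female 2. The hindbrain libraries held 7 and 8 counts in TG and 25 and 18 in WT, and the cerebellum library 1 count. The cortex and hindbrain ranges overlapped.

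The 4 Dlx genes, homeodomain factors of forebrain GABAergic neurons, had the same class order, with few or no counts in hindbrain and cerebellum. Dlx1 was at 197, 250 and 268 CPM in Omp-high TG libraries, against 247, 238, 111 and 214 CPM in WT ones. The cortex libraries held 23.9 CPM in TG and 23.7 and 32.7 CPM in WT, and the hindbrain and cerebellum libraries 2 to 14 counts each. Dlx2 was at 62.4, 75.6 and 79.4 CPM in Omp-high TG libraries, against 75.1, 71.9, 35.8 and 72.7 CPM in WT ones. The cortex levels of Dlx2 were 8.55 CPM in TG and 8.91 and 10.3 CPM in WT. The cortex medians were 10% of the Omp-high median for Dlx1 and 12.3% for Dlx2, and in the hindbrain and cerebellum classes only TG female 4, with 13 counts, was above 3 counts of Dlx2.

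Dlx5 was at 38.8, 44.9 and 48.5 CPM in Omp-high TG libraries, against 40.5, 42.5, 23.5 and 34.3 CPM in WT ones. Dlx6 was at 17.7, 20.9 and 20.2 CPM in TG, against 20.5, 16.5, 13.5 and 16.4 CPM in WT. The cortex libraries had 5.22 CPM of Dlx5 in TG and 3.88 and 5.49 CPM in WT, and 2.18 CPM of Dlx6 in TG and 2.68 and 3.15 CPM in WT. All 5 hindbrain and cerebellum libraries held at most 2 counts of Dlx5 and 3 of Dlx6, so that neither gene was detectable there beyond the limit of 3 counts. The antisense partner Dlx6os1, a noncoding RNA transcribed across Dlx6, followed the same order, with 212, 247 and 287 CPM in Omp-high TG libraries, against 242, 252, 110 and 193 CPM in WT ones. Dlx1as was at 47.3, 57.7 and 67 CPM in Omp-high TG libraries, against 58, 54, 32.6 and 51.4 CPM in WT ones, and kept a higher share in cortex, with 31 CPM in TG and 21.3 and 21.8 CPM in WT. Its cortex median was 40.4% of the Omp-high median, against 13% for Dlx6os1.

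Apart from Igfbpl1, whose cortex median was 0, the zinc finger factors Sp8 and Sp9 differed most between Omp-high and cortex libraries. Sp8 was at 138, 170 and 190 CPM in Omp-high TG libraries, against 160, 162, 70.5 and 152 CPM in WT ones, and its cortex levels were 3.21 CPM in TG and 3.39 and 9.32 CPM in WT. Sp9 was at 86.3, 101 and 113 CPM in TG, against 92.0, 101, 43.8 and 99.9 CPM in WT, with 6.60 CPM in the TG cortex library and 6.29 and 11.2 CPM in the WT ones. The cortex medians were 2.12% of the Omp-high median for Sp8 and 6.60% for Sp9. In the hindbrain libraries Sp8 was at 0.834 to 1.61 CPM and Sp9 at 0.696 to 1.19 CPM.

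**Figure D2:**
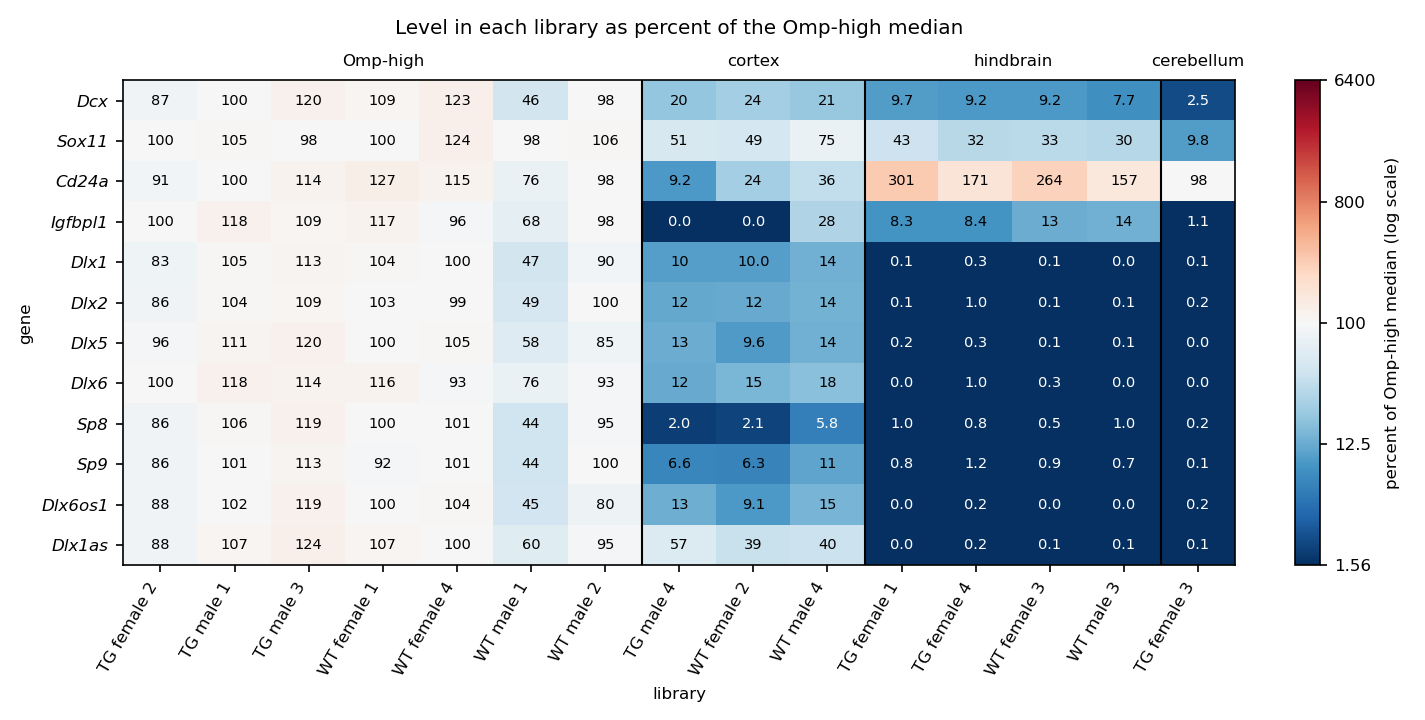
Level of the 10 genes and the 2 antisense RNAs in each library as percent of the gene's Omp-high median (number in each cell; colour on a log scale, saturated below 1.56%). Rows are genes and columns libraries, grouped by class. WT male 1 is the lowest Omp-high library for 9 of the 10 genes, all but Sox11.

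The proportions between the genes also differed by class. The ratio of Sp8 to Dlx1 counts was 0.636 to 0.708 in the 7 Omp-high libraries and 0.134 to 0.285 in the 3 cortex libraries. The ratio of Sp8 to Sp9 was 1.52 to 1.74 in Omp-high and 0.487 to 0.834 in cortex libraries. The ratio of Dlx1as to Dlx1 was 0.227 to 0.294 in Omp-high and 0.667 to 1.29 in cortex libraries. These 3 ranges did not overlap. The ratio of Dlx2 to Dlx1, in contrast, was 0.296 to 0.340 in Omp-high and 0.316 to 0.376 in cortex libraries, and that of Dlx5 to Dlx1 was 0.160 to 0.212 in Omp-high and 0.164 to 0.218 in cortex libraries. These Dlx ratios overlapped between the classes. Within the Omp-high class, the TG and WT ranges of every ratio computed overlapped.

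Per kilobase of exon, the order of the median levels in Omp-high libraries was Dlx1 (44.1 CPM per kb), Sp8 (35.1), Dcx (32.0), Dlx2 (25.5), Sp9 (19.8), Dlx5 (17.9), Dlx6 (7.45), Cd24a (6.98), Sox11 (4.38) and Igfbpl1 (1.67). Dlx6os1 stood at 46.4 CPM per kb and Dlx1as at 33.1. The ranges of most neighbours overlapped, so each pair was also compared within each of the 7 libraries. Dlx1 was above Sp8 in all 7, at 1.19 to 1.33 times its level per kb. The order was mixed for Sp8 over Dcx (6 of 7 libraries), Sp9 over Dlx5 (5 of 7) and Dlx6 over Cd24a (5 of 7), and held in 7 of 7 for the other neighbours.

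Among the Omp-high libraries, WT male 1 was the lowest for 9 of the 10 genes, all but Sox11, as it was for 31% of 16390 genes. Its level was 43.6% to 56.6% of the median of the other 6 libraries for Sp9, Sp8, Dcx, Dlx1, Dlx2 and Dlx5. A level below 60% was found for these 6 of the 10 genes and for 5.73% of all genes. Sox11 was at 96.1%, and the median gene at 97.9%. Of the lists of related genes, other bulb interneuron transcription factors summed to 1070 CPM in WT male 1 and to 1610 to 2090 CPM in the other 6. It was lowest for mature bulb interneuron genes (3100 against 3800 to 4610 CPM) and mitral and tufted markers (1040 against 1320 to 1680 CPM). Olfactory axon markers were lowest too (115 against 130 to 274 CPM), and narrowly the stem cell and other neuroblast lists. The medial ganglionic eminence interneuron (200 against 91.4 to 151 CPM), dentate granule, neuroblast guidance and blood lists were highest in WT male 1. Omp was at 42.3% of the median of the other 6 libraries. The striatal list stood at 1970 CPM in WT male 1 and in TG female 2, against 435 to 1190 CPM in the other 5. How far the makeup of the dissected tissue enters these levels was not tested.

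**Figure D3:**
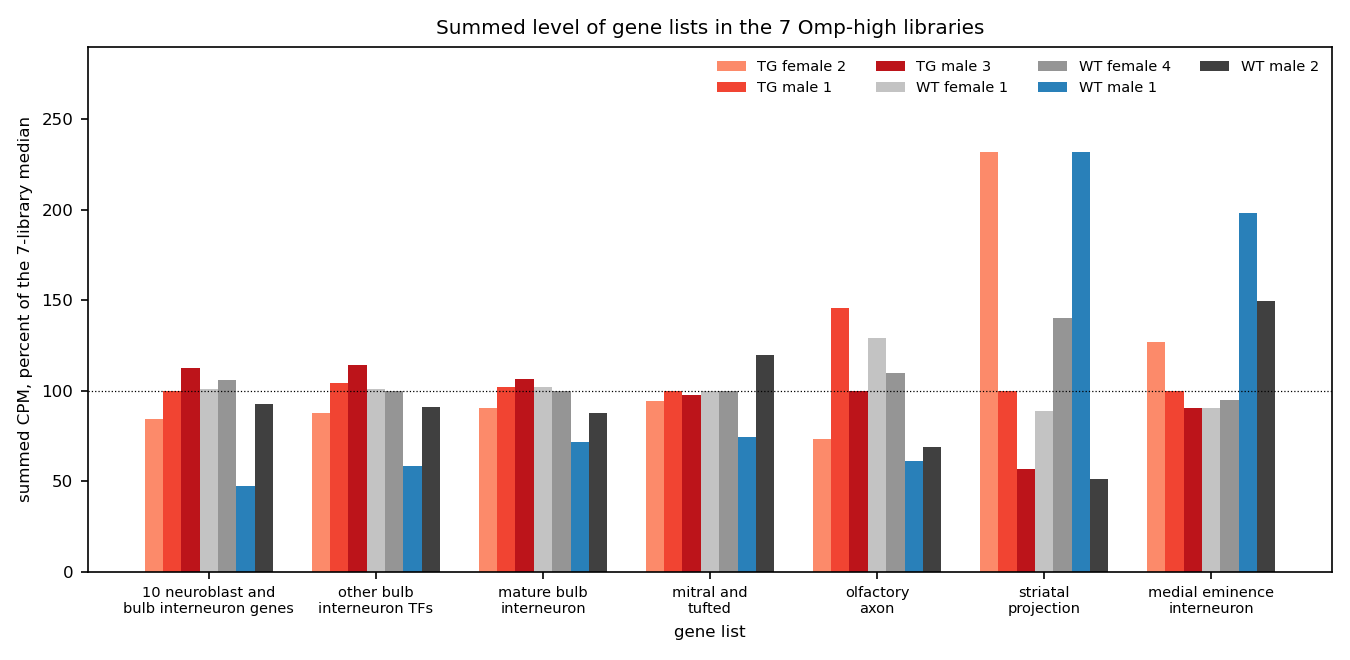
Summed CPM of 7 gene lists in each Omp-high library, as percent of the 7-library median (bars start at 0; reds are TG, greys WT, blue is WT male 1). WT male 1 is lowest for the 10 genes, at 538 CPM against 953 to 1270 CPM, and is at 1970 CPM for the striatal list.

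The 10 genes did not all vary together over the 7 Omp-high libraries. Correlations of log2 CPM among Dcx, the Dlx and the Sp genes ran from 0.74 to 0.99 over 21 pairs, and from 0.12 to 0.95 without WT male 1. The 24 pairs with Sox11, Cd24a or Igfbpl1 ran from -0.15 to 0.96, and from -0.62 to 0.96 without WT male 1. These are descriptions over 7 libraries that share this 1 low library. The genes outside the 10 whose level was nearest to their mean over the 7 libraries were Ppp1cc, Runx2, Rasa3, Cdhr1, Tuba8, Eomes, Dclk2, Ppp1ccb, Ms4a15 and Sall3, with r of 0.994 to 0.999. Ppp1cc and Ppp1ccb are near-identical copies. Eomes and Cdhr1 are markers of mitral and tufted cells, and r exceeded 0.9 for 7.17% of 13907 genes, and no shared function is read from these lists. Over all 15 libraries, which fall into classes, the nearest were Sox4, Rgs12, Lama3, Cntnap3, Cdca7, Ppfibp1, Actn2, Capn6, Rhcg and Frmd7, with r of 0.981 to 0.991, and 2.39% of 15176 genes passed 0.9.

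Genotype was compared within the Omp-high class, 3 TG against 4 WT libraries, with sex as a covariate. Of the 10 genes, 0 passed a Benjamini-Hochberg adjusted p of 0.05 in edgeR, where 50 of 16390 genes (0.305%) were called, 33 higher and 17 lower in TG. The split was 17 higher and 37 lower without TG female 2, and 8 higher and 15 lower without the sex covariate. The total was 1 to 74 with 1 library left out, lowest without WT female 4, TG male 1 or TG male 3 and highest without WT male 1. Likewise 0 were below an unadjusted p of 0.05, against 5.99% of all genes, and DESeq2 called 0 of the 10. The estimates were positive for 9 of the 10 genes and for 49.5% of all genes. The median of the 10 was 0.23 on the log2 scale, against -0.002 for all genes. All TG libraries were above all WT ones for 0 of the 10 genes and for 3.94% of all genes, and below for 0 of the 10 and for 2.89%.

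Dlx5 was nearest to the threshold, at 44.1 ± 4.92 CPM in TG and 35.2 ± 8.56 CPM in WT (SD, n = 3 and 4). Its log2 difference was 0.37 ± 0.19 (SE; 95% interval -0.09 to 0.83; edgeR adjusted p = 0.787). Dcx averaged 416 ± 67.1 CPM in TG and 381 ± 136 CPM in WT, with a log2 difference of 0.21 ± 0.33. The groups overlapped for both genes, and the wider WT spread for Dcx holds the 187 CPM of WT male 1.

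Sox11 was the single negative estimate, at -0.09 ± 0.09 (SE; interval -0.30 to 0.12), from 36.7 ± 1.29 CPM in TG and 39.0 ± 4.21 CPM in WT. Cd24a differed by 0.00 ± 0.17, and Igfbpl1 by 0.22 ± 0.19. As a fold, the interval for Sox11 was 0.812 to 1.09, the narrowest of the 10.

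The other Dlx and Sp factors also gave positive estimates, with intervals that spanned 0. Dlx1 averaged 238 ± 37.0 CPM in TG and 203 ± 62.7 CPM in WT, with a log2 difference of 0.29 ± 0.29 (SE). Sp8 averaged 166 ± 25.9 CPM in TG and 136 ± 44.0 CPM in WT, a log2 difference of 0.33 ± 0.31. The other estimates were 0.21 for Dlx2, 0.24 for Dlx6 and 0.28 for Sp9, with 0.41 ± 0.28 for Dlx6os1 and 0.24 ± 0.22 for Dlx1as. The intervals of the 10 genes reached down to 0.669-fold, for Dcx, and up to 2.11-fold, for Sp8. A p that misses the threshold does not show equal levels: the data leave room for changes of this size.

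**Figure D4:**
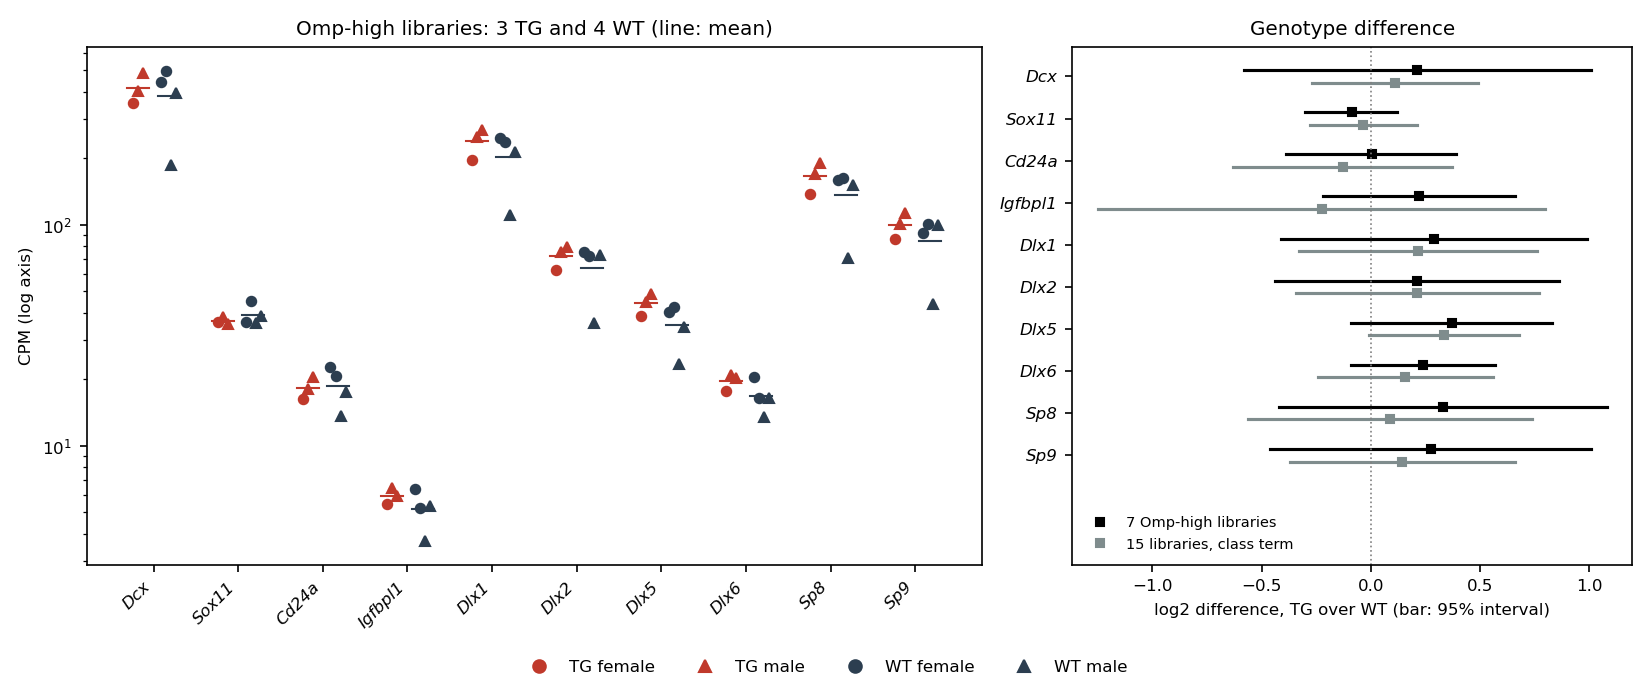
Left, CPM of each gene in the 3 TG (red) and 4 WT (dark) Omp-high libraries, on a log axis with a line at each mean; circles are females and triangles males. Right, log2 difference TG over WT with its 95% interval, in the Omp-high libraries (black) and in all 15 libraries with a class term (grey); every interval spans 0.

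Without WT male 1 the estimates for Dcx, Cd24a, Dlx1, Dlx2 and Sp9 turned negative. The median of the 10 genes was then -0.03, with 4 positive and 6 negative estimates between -0.15 and 0.17. Without TG female 2 the median was 0.52, with estimates of -0.04 to 0.67 and a lowest adjusted p of 0.126 by edgeR, for Dlx5, and TG was then males alone. The 10 genes passed the threshold in 0 of the 7 fits that left out 1 library.

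The sexes gave opposite arrangements. Both TG males were above both WT males for 9 of the 10 genes, all but Sox11, against 28.4% of all genes. The only TG female was below both WT females for 8 of the 10, all but Igfbpl1 and Dlx6, against 36% of all genes. Both held at once for Dcx, Cd24a, Dlx1, Dlx2, Dlx5, Sp8 and Sp9, against 13.2% of all genes. A genotype-by-sex interaction, added after these values were seen, was negative for all 10 genes, from -0.996 for Dcx to -0.11 for Sox11. It was positive for 50.6% of all genes. It called 0 of 16390 genes by edgeR, where 12.4% were below an unadjusted p of 0.05. Of the 10, Cd24a (-0.68, edgeR adjusted p = 0.344) and Dlx5 (-0.75, edgeR adjusted p = 0.348) were below an unadjusted 0.05. The lone TG female is assumed in that fit to vary like the other groups. The 10 genes were read in the same 7 libraries and are not independent counts of this arrangement. The WT males include WT male 1, the low library. The striatal list stood at 1970 CPM in TG female 2, against 756 and 1190 CPM in WT females 1 and 4. The part of these library differences was not tested.

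Between the sexes in the same libraries, with genotype as a covariate, 0 of the 10 genes were called by edgeR or DESeq2, against 6 of all genes by edgeR (0.0366%). At an unadjusted p of 0.05, 0 of the 10 passed, against 5.69% of genes. All 10 estimates were positive for female over male, from 0.06 to 0.30, against 49.1% of all genes positive. The lowest edgeR adjusted p was 0.931. Without WT male 1, 3 were positive and 7 negative, with a median of -0.03.

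Over all 15 libraries, 7 TG against 8 WT, 0 of the 10 genes were called by edgeR or DESeq2, and edgeR called 19 of 17151 genes (0.111%). At an unadjusted p of 0.05, 0 of the 10 passed, against 1.83% of genes. The estimates ran from -0.33 to 0.03, and the intervals were as wide as -3.58 to 3.12 for Dlx1, with libraries of several classes in both TG and WT. With library class as a term, 85 genes (0.496%) were called and 0 of the 10 were, and 8.4% of genes but 0 of the 10 were below an unadjusted p of 0.05. The estimates were then positive for 7 of the 10 genes and for 50.4% of all genes. Dlx5 was nearest, at 0.33 ± 0.16 (SE; interval -0.01 to 0.68; edgeR adjusted p = 0.612).

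Lists of related genes were set beside the 10 in the Omp-high comparison. In each of these lists, 0 genes were called in either direction by edgeR. At an unadjusted p of 0.05, 2 other neuroblast genes, 1 mature interneuron gene and 1 medial ganglionic eminence marker passed, and 0 in the other lists. Of 15 other neuroblast genes, 6 had positive estimates, with a median of -0.10. Fxyd6, a regulator of the sodium pump, was at -0.57 ± 0.10 (SE; edgeR adjusted p = 0.137), and the tubulin gene Tubb2b at -0.25 ± 0.07 (edgeR adjusted p = 0.576). Of 12 stem cell and progenitor genes tested, 6 were positive, with a median of 0.04; Nes, an intermediate filament of neural stem cells, was at 0.14 ± 0.07. Among 17 guidance genes, which steer neuroblasts, 5 were positive, and the repellent Slit2 was at -0.74 ± 0.44 and Nrg1, a ligand of ErbB4, at -0.18 ± 0.14.

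Of 13 other bulb interneuron transcription factors tested, 8 were positive, with a median of 0.17. Nr4a2 was at 0.77 ± 0.49 and Meis2 at 0.30 ± 0.20. Of 14 mature bulb interneuron genes, 10 were positive, with a median of 0.18. Ddc, the dopamine-making decarboxylase of periglomerular cells, was at -0.67 ± 0.25 (edgeR adjusted p = 0.777), and with the class term over 15 libraries at -0.83 ± 0.20 (edgeR adjusted p = 0.136). Pcp4l1, a relative of Pcp4, was at 0.37 ± 0.17. Markers of other cells differed in sign: olfactory sensory axon markers had 7 of 8 positive (median 0.44), mitral and tufted markers 3 of 8 (median -0.21), striatal markers 1 of 10 (median -0.21), medial ganglionic eminence interneuron markers 1 of 6 tested (median -0.28) and blood markers 0 of 4 (median -1.04). Their part in the levels of the 10 genes was not tested.

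The lists of dentate granule and ependymal markers had 5 and 3 genes tested, of which 2 and 1 were positive. Calb1, which is also a bulb interneuron gene, was at -0.62 ± 0.36 and Foxj1, a ciliogenesis factor, at 0.32 ± 0.21.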

How the data were processed

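Each of the 15 libraries took 250 ng of RNA into a stranded kit that depletes ribosomal RNA, per the labels' protocols, although the labels' molecule field says polyA RNA. The deposited values are read counts per gene. The submitters' processing notes name STAR 2.7.5b, featureCounts and Subread, and the build GRCm38. Names were found for 25275 of 27179 IDs, and IDs without one held 0.862% of counts. Every pair of libraries differed by more than sampling noise (lowest chi-square per gene 6.03).

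Counts were filtered with filterByExpr, TMM-scaled and tested in R 4.3.3 with edgeR 4.0.16 (robust quasi-likelihood F test, Benjamini-Hochberg at 0.05), checked on simulated counts; DESeq2 1.42.0 was an alternative. CPM uses TMM sizes, and correlations use log2(CPM + 0.5). The 3-count limits cover counting error alone, and intervals of log2 differences come from the fit. Exon lengths are GENCODE M21 unions. Of the list genes, 2 were not found in the table. The 10 genes, lists, class limits and tests were chosen with earlier results of these data known. All 10 genes were named, with up to 2 genes per other list by smallest p, the 4 class markers, both Dlx antisense RNAs and the 10 nearest genes by correlation.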

Additional observations from a re-analysis of the deposited data

Results flagged for a closer look

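Within a group of 4 libraries, a sample whose gap to the nearest other took up most of the range (Dixon's test) was found for 11 of 40 gene and group combinations. A rate of about 1 in 20 by chance assumes uniform groups and independent genes. The genotype-by-sex groups mix library classes and the genes share libraries, so 11 of 40 cannot be set against that rate.

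In TG females, TG female 2 stood apart for 8 genes. It had 354 CPM of Dcx, against 9.97 to 39.4 CPM in the other 3, and 5.43 CPM of Igfbpl1, against 0.0597 to 0.454 CPM. The Dlx genes were at 197 CPM (Dlx1), 62.4 CPM (Dlx2), 38.8 CPM (Dlx5) and 17.7 CPM (Dlx6), where the other 3 had at most 0.795 CPM of any of them. Sp8 was at 138 CPM, against 0.298 to 1.61 CPM, and Sp9 at 86.3 CPM, against 0.119 to 1.19 CPM. This is the only TG female of the Omp-high class, so these gaps repeat the class difference given above.

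In the Omp-high WT libraries, WT male 1 stood apart for 3 genes. It had 35.8 CPM of Dlx2, against 71.9 to 75.1 CPM in the other 3, 70.5 CPM of Sp8, against 152 to 162 CPM, and 43.8 CPM of Sp9, against 92.0 to 101 CPM.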

How the results depend on the processing

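The 10 genes were called 0 times under every alternative run. The genes called overall moved more. In Omp-high libraries genotype called 50, against 120 by the DESeq2 Wald test, 23 without the sex covariate, 0 with the replicate block, and 1 to 74 with 1 library left out (1 without WT female 4, TG male 1 or TG male 3, 3 without WT male 2, 17 without WT female 1, 74 without WT male 1). Sex called 6, against 87 by the DESeq2 Wald test, 10 with no filter, 2 with the replicate block and 4 to 42 with 1 library left out (22 without TG female 2, 42 without WT male 1). Over 15 libraries 19 were called, against 40 by the DESeq2 Wald test, 85 with the class term and 14 to 21 with 1 library left out. With the replicate block, the Omp-high libraries leave fewer residual degrees of freedom than the 4 of the fit without it. TG male 3 is alone in its replicate number there. The low counts with the block in that class cannot be told apart from this loss. The cause of these shifts was not tested.

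In deviations from the mean of each genotype-by-sex group, same-numbered libraries correlated at -0.65 to 0.93 over 21 pairs (median -0.03). Of the 15 libraries, 3 correlated best with their own number. Each group mixes library classes, which enter these deviations, so the correlations cannot decide whether replicate numbers pair the libraries. With the replicate block, log2 differences of changed sign were 0.00 for Sox11 and -0.09 for Cd24a by genotype in Omp-high libraries, -0.05 for Sox11 by sex, and over 15 libraries -0.03 for Cd24a, 0.13 for Dlx1, 0.09 for Dlx2, 0.29 for Dlx5, 0.15 for Dlx6, 0.12 for Sp8 and 0.11 for Sp9. Without the sex covariate they were -0.05 for Cd24a in Omp-high libraries, and 0.07 for Dlx5 and 0.04 for Sp8 over 15. With the class term they were 0.11 for Dcx, -0.13 for Cd24a, 0.22 for Dlx1, 0.21 for Dlx2, 0.33 for Dlx5, 0.16 for Dlx6, 0.09 for Sp8 and 0.15 for Sp9.

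With 1 library left out, estimates changed sign within these ranges. Genotype in Omp-high libraries gave -0.15 to 0.27 for Cd24a, -0.12 to 0.59 for Dcx, -0.02 to 0.65 for Dlx1, -0.07 to 0.49 for Dlx2 and -0.03 to 0.55 for Sp9. Sex gave -0.03 to 0.68 for Dcx, -0.10 to 0.56 for Dlx1, -0.14 to 0.42 for Dlx2, -0.04 to 0.29 for Dlx6, -0.03 to 0.33 for Igfbpl1, -0.02 to 0.13 for Sox11, -0.14 to 0.52 for Sp8 and -0.17 to 0.41 for Sp9. Genotype over 15 libraries gave -0.22 to 0.30 for Cd24a, -0.92 to 0.05 for Dcx, -1.80 to 0.10 for Dlx1, -1.68 to 0.06 for Dlx2, -1.54 to 0.24 for Dlx5, -1.58 to 0.16 for Dlx6, -1 to 0.14 for Igfbpl1, -1.55 to 0.21 for Sp8 and -1.59 to 0.18 for Sp9.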
